A study of Mus musculus with 4 samples.

Results

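The response of wild-type (WT) mouse embryonic fibroblasts (MEFs) to interferon alpha (IFNa) was taken from 2 Illumina bead arrays of total RNA. MEFs are connective-tissue cells grown from mouse embryos. The labels describe them as a MEF cell line of strain C57BL/6, with nothing on the number of lines or clones behind a genotype. One WT culture was left untreated, and the other received 1000 U per ml IFNa over 2 h. The response of a probe is its log2 intensity with IFNa minus its log2 intensity without it, so a difference of 1 is 2-fold. The probes counted had a detection score above 0.99 on at least 1 of the 2 WT arrays, which held for 17639 of 46632 probes. Of these, 13392 carried the name of 1 gene, and the brightest probe of each gene gave 9716 of the 17708 genes named on the array. Apart from the WT pair, the study holds MEFs labelled STAT3KO, which lack the transcription factor STAT3, untreated and with the same IFNa treatment, 1 array each.

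Type I interferons such as IFNa bind a receptor shared by nearly all cells and activate the kinases JAK1 and TYK2. These lead to a complex called ISGF3, in which STAT2 and IRF9 take part. ISGF3 enters the nucleus and binds the interferon-stimulated response element (ISRE), a DNA motif with GAAA repeats, in the promoters of antiviral genes. STAT3, which type I interferons also activate, binds sequences like a different motif, the gamma-activated sequence (GAS). In fibroblasts the induced genes encode proteins that block viral replication, sense foreign nucleic acid, display antigen and recruit leukocytes.

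The promoter stretches below are shown because they belong to genes with large WT responses and hold an ISRE core. They were read from the RefSeq promoter table of assembly GRCm38.p6, which covers 250 bases before to 50 bases after each gene start. Each is printed on the strand of its gene, and capitals mark the ISRE core, which is GAAA and GAAA with any 2 bases between, or its reverse complement, TTTC and TTTC with any 2 bases between. Overlapping matches are joined.
Rsad2, chr12:26456538-26456597, minus strand: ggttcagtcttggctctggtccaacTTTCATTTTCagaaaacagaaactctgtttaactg
Irgm2, chr11:58214888-58214947, plus strand: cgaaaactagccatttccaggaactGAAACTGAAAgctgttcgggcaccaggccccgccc
Igtp, chr11:58199497-58199555, plus strand: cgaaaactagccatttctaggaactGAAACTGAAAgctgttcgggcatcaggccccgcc
Irgm1, chr11:48871421-48871469, minus strand: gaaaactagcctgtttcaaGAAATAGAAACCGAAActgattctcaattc
Stat2, chr10:128270251-128270310, plus strand: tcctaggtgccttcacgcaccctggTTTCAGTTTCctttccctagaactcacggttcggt
Gbp3, chr3:142559980-142560039, plus strand: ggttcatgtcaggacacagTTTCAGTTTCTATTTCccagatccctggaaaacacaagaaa
Cxcl10, chr5:92349068-92349127, minus strand: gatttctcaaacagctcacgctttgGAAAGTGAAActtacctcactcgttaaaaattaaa
Apol9b, chr15:77729016-77729071, plus strand: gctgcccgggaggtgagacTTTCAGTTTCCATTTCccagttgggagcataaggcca

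The neighbouring GTPase genes Irgm2 and Igtp share 57 of the 59 bases compared, and each printed stretch also holds 1 GAS core (TTCNNNGAA) in lower case. The paralogues Apol9a and Apol9b share all 56 bases compared. Irgm1, Gbp3 and Apol9b carry overlapping ISRE cores, so that 3 GAAA or TTTC units follow each other.

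IFNa left 93 genes (0.957% of the 9716) at a WT level raised at least 2-fold and 28 (0.288%) at a level at least 2-fold lower. At 1.5-fold the counts were nearly even, with 447 genes higher (4.6%) and 473 lower (4.87%). Over all probes, 166 (0.941%) were past 2-fold upwards and 55 (0.312%) downwards. The median response of all genes was 0.02. Of the 93, 46 belong to 8 lists of interferon-response genes, which together hold 117 detected genes, and none of the 28 does. In these lists 100 of the 117 genes lay above 0, beside 53.5% of all genes, and their median response was 0.58. The lists were chosen with earlier results of these data known. Of the 117, 25 were detected only with IFNa, which by itself favours a value above 0. Over the 91 detected on both arrays the median was 0.31, and 29 were past 2-fold. The split between higher and lower genes depended on the scaling. With each array scaled to its 75th percentile it was 104 genes against 145, and the median of all genes moved to 0.33. In the authors' normalized values, used as deposited, 37 genes (0.381%) passed 2-fold upwards and 4 (0.0412%) downwards. With 1 array in each group, no WT difference has a test. The design allows only a test of the mean response over both genotypes, made with limma, in which 79 of 10515 genes (0.751%) rose and 14 (0.133%) fell, with an adjusted p of 0.05 as the threshold. It has 1 residual and 14.2 prior degrees of freedom, and no gene passed it without the intensity trend in the variance (284 unadjusted p under 0.05, against 439 with the trend), which holds for every limma call given here. Its p-values rest on the difference between the genotypes and on the spread of other genes, not on replicate cultures. In bulk RNA, a change in the number of cells of a type cannot be told apart from a change in RNA per cell.

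Dim probes carried many of the WT differences. Of the 9716 genes, 8727 were detected on both WT arrays, and 47 of these (0.539%) were past 2-fold upwards and 7 (0.0802%) downwards. Another 567 were detected only with IFNa, and 46 of them were past 2-fold, 17 of these in the interferon lists. The remaining 422 were detected only without IFNa and gave 21 of the 28 lower genes. Outside the interferon lists, the middle 95% of responses ran from -0.91 to 0.92 at a mean log2 intensity of 4 to 6 and from -0.32 to 0.33 at 12 to 17. Past 2-fold were 2.59% of genes in the dimmest range and 0 of 878 in the brightest. A 2-fold difference therefore stood further outside the spread of other genes for a bright probe than for a dim one. Where a probe was not detected on the untreated array, its fold is written as "at least", against the lowest detected intensity of that array or the probe's own value if higher. Such a bound holds only on the background-corrected scale used here, and ratios in the authors' values can lie below it.

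**Figure D1:**
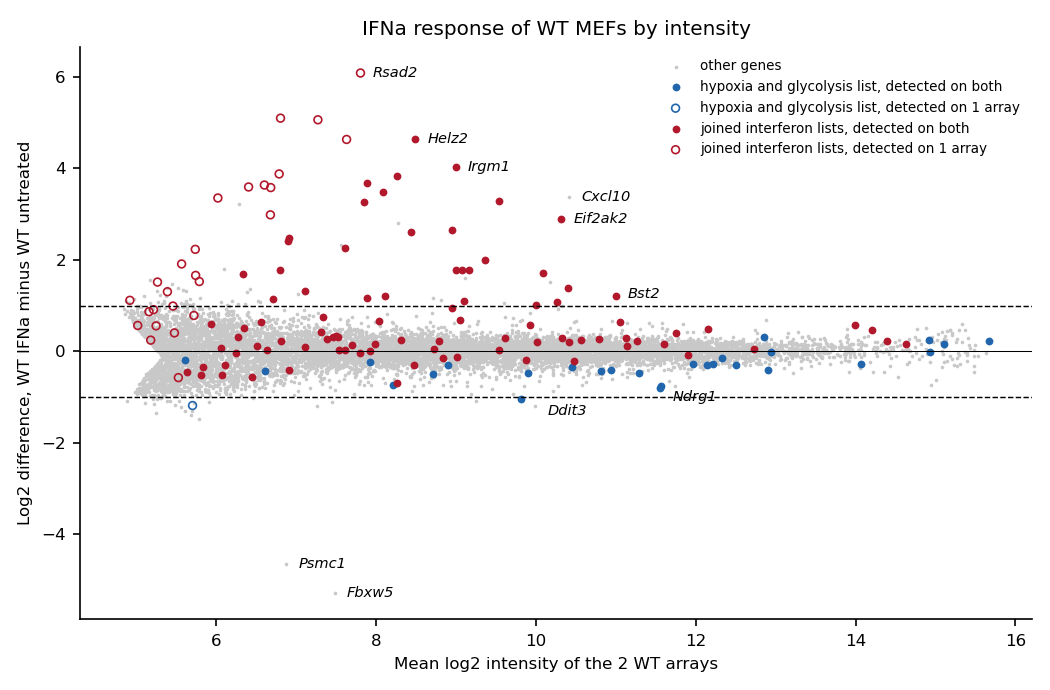
Response of each of the 9716 genes (WT IFNa minus WT untreated, log2) against the mean log2 intensity of the 2 WT arrays, 1 point per gene. Red marks the joined interferon lists and blue the hypoxia and glycolysis list, open circles mark members detected on 1 array only, and dashed lines mark 2-fold. The grey spread narrows from dim to bright probes. Of the 117 interferon genes, 46 lie past 2-fold upwards, among them Rsad2 at 6.08 and Helz2 at 4.64, and 17 lie below 0.

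Of the 25 genes with the largest WT responses, 14 were detected on both arrays and can be ordered by size. Helz2, a helicase that acts as a nuclear receptor coactivator, led them, going from 6.17 to 10.81 on the log2 scale (24.9-fold). In the authors' linear values it went from 111.1 to 1243.5, a ratio of 11.2. Irgm1, an immunity-related GTPase that controls autophagy and intracellular pathogens, went from 6.98 to 11.01 (16.2-fold), or from 143.3 to 1416.2 in the authors' values. For both genes, which started near background, the ratio in the authors' values was the smaller one.

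Samd9l, an antiviral restriction factor, followed at 14.1-fold, and Parp9, which encodes an inactive ADP-ribosyltransferase, at 12.9-fold. Irf9, the DNA-binding subunit of ISGF3, went from 6.34 to 9.83 (11.2-fold). Cxcl10, a chemokine that attracts T cells, went from 8.73 to 12.10 (10.3-fold), and from 336.2 to 3102.2 in the authors' values. Its start was well above background, and the ratio in the authors' values was 9.23. Dtx3l, the ubiquitin ligase partner of PARP9, was 9.58-fold higher, and Eif2ak2, the double-stranded RNA-activated kinase PKR, went from 8.87 to 11.76 (7.45-fold). The remaining genes detected on both arrays were Trim25, Serpina3f, Ch25h, Apol9a, Oasl1 and Parp12, between 5.29-fold and 9.68-fold higher. Ch25h makes 25-hydroxycholesterol, an oxysterol that blocks entry of enveloped viruses.

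The other 11 of the 25 were detected only with IFNa, so their order is not given by the data. Rsad2, which encodes viperin, an enzyme that makes a chain-terminating nucleotide, was at least 44.4-fold higher on the background-corrected scale. Its intensity was 75.6 without IFNa and 1272.2 with it in the authors' values, a ratio of 16.8. Cmpk2, its neighbour and a mitochondrial nucleotide kinase, was at least 23.8-fold higher on the same scale, with a ratio of 8.14 in the authors' values. The bound was 21.5-fold for Igtp, 15.7-fold for Irgm2 and 10.2-fold for Stat2, where the authors' values gave ratios of 8.56, 9.28 and 4.32. Gbp3, Parp14, Ifit3, Apol9b, Cd274 and Mx2 had bounds between 8.55-fold and 4.99-fold, and ratios between 3.72 and 2.92 in the authors' values. A further probe of Ifit3, detected only with IFNa, gave 1.86, against 3.59 on the probe used. Cd274 encodes PD-L1, a ligand that restrains T cells. Of the 25, 24 passed the limma test of the mean response, and all 25 were at least 2-fold higher in the authors' values. Trim25 was the exception in the test.

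**Figure D2:**
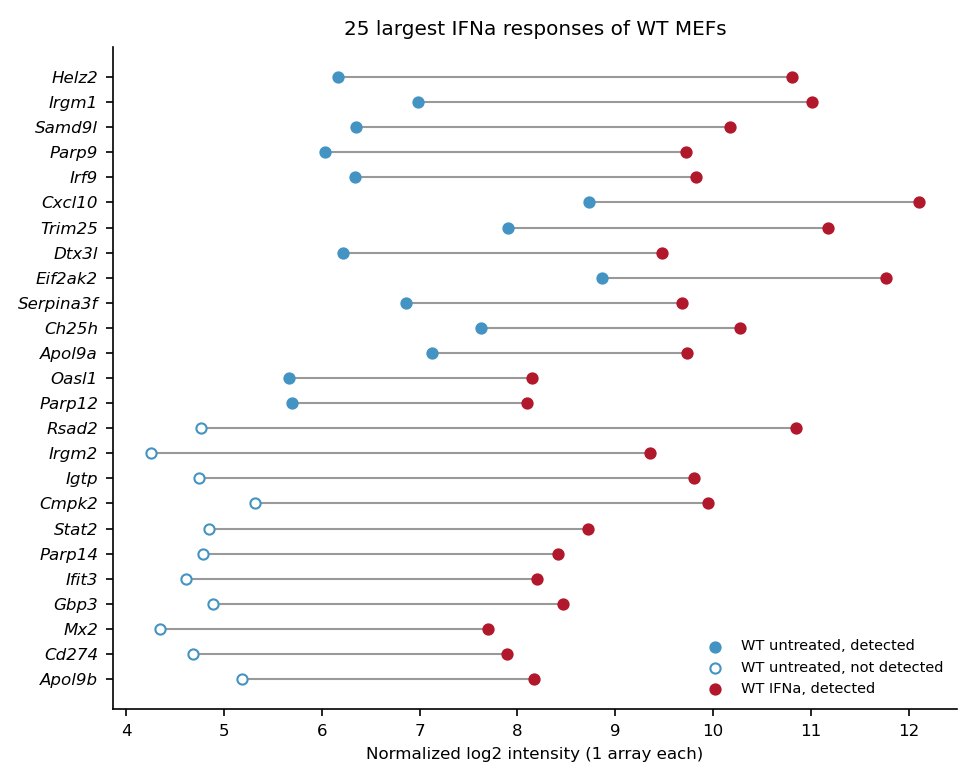
Normalized log2 intensity of the 25 genes with the largest WT responses, blue for the untreated array and red for the IFNa array, with open circles where the untreated probe was not detected. The 14 genes in the upper block were detected on both arrays and are sorted by response, from Helz2 (4.64) to Parp12 (2.40), and the 11 in the lower block, from Rsad2 (6.08) to Apol9b (2.98), start at background.

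The factors that carry the signal were themselves higher. Of 10 detected interferon-linked transcription factors, 4 were at least 2-fold higher and none lower, and 5 rose in the limma test. Beside Stat2 and Irf9, Irf1 went from 8.27 to 10.05 (3.44-fold) and Irf7 from 5.90 to 7.68 (3.43-fold). A dimmer probe of Irf1, not detected without IFNa, gave a smaller response of 1.02. IRF1 activates ISRE-driven genes, and IRF7 drives the interferon genes themselves. Stat3 went from 10.66 to 10.92 in WT, against 6.51 and 6.12 on the untreated and IFNa arrays labelled STAT3KO, and its second WT probe from 10.36 to 10.38. Irf2 and Irf3 differed by 0.29 and -0.22.

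Receptors and kinases of the pathway moved little. Of 11 detected, Il15ra alone was past 2-fold, at 5.16 without IFNa, where it was not detected, and 6.17 with it. At its bound that response was 0.79, under 2-fold, and in the authors' values no gene of the list was past 2-fold. None passed the limma test. Ifnar2, a chain of the type I interferon receptor, went from 7.44 to 7.83, and Jak1 from 8.75 to 8.64. The 2 detected probes of Jak2 went opposite ways, 0.63 and -0.94. Of 15 detected feedback inhibitors of JAK-STAT signalling, none was past 2-fold on its brightest probe. Usp18, a further entry of that list, has no named probe here, so its response was not read. Socs1, which blocks JAK kinases, went from 8.06 to 8.56 on the probe used and from 5.97 to 7.01, past 2-fold, on its dimmer probe, and Socs3 from 11.18 to 11.74. Socs1 passed the limma test of the mean over both genotypes (adjusted p = 0.0218), with a WT response of 0.50 and a STAT3KO response of 1.74.

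Among antiviral effectors, 18 of 30 detected genes were at least 2-fold higher and none lower, and the median response was 1.26. This is 60% of the list beside 0.957% of all genes. Over the 20 members detected on both arrays, 10 were past 2-fold and the median was 0.84. Bst2, which encodes tetherin, a protein that holds budding virions at the cell surface, went from 10.39 to 11.61 (2.32-fold). Zc3hav1, which directs viral RNA to decay, went from 8.11 to 9.89 (3.43-fold), while its second, dimmer probe differed by -0.33. Adar, an RNA-editing enzyme, was 2.15-fold higher on the probe used and 2.03 higher on the log2 scale on its other probe. Ifit2, which binds viral RNA, went from 9.64 to 10.21 and stayed under 2-fold.

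All 4 detected genes of the immunity-related and guanylate-binding GTPases were past 2-fold, with a median of 4.54. These proteins attack the membranes around intracellular pathogens. The 4 were Irgm1, Irgm2, Igtp and Gbp3, and only Irgm1 was detected without IFNa. The others entered through the IFNa array alone, where they were high, so the filter itself favoured a large response. Of the 18 entries of the list 14 are on the array, and those detected on neither WT array are not counted. Gbp2 is one of the list's entries with no named probe here.

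Nucleic acid sensors and their adaptors had a median of 0.65, with 6 of 17 detected genes past 2-fold and 8 rising in the limma test. Trex1, an exonuclease that degrades cytosolic DNA, went from 8.37 to 10.36 (3.96-fold). Of the RNA sensor genes, Ddx58 (RIG-I) was at least 2.78-fold higher and Dhx58 (LGP2), detected on both arrays, 3.22-fold higher, with ratios of 1.88 and 1.70 in the authors' values. In those values 3 of the 17 were past 2-fold. Ifih1, the related sensor MDA5, was not detected without IFNa and reached 5.68, a response of 0.40. Cgas, the cytosolic DNA sensor, went from 10.73 to 11.38, and Ticam1, the adaptor of Toll-like receptor 3, from 8.60 to 7.92.

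In the ubiquitin and ISG15 conjugation list, 5 of 10 genes were past 2-fold, and the median was 0.93. ISG15 is a ubiquitin-like protein attached to other proteins, and Isg15 itself has no named probe here. Uba7, its activating enzyme, went from 7.51 to 8.71 (2.30-fold), and Ube2l6, its conjugating enzyme, was not detected without IFNa and reached 5.47. At its bound the response of Ube2l6 was 0.10, and in the authors' values 3 of the 10 were past 2-fold. Trim25, a ubiquitin ligase that acts on RIG-I, went from 7.90 to 11.18 (9.68-fold). It was detected on neither STAT3KO array, at 4.41 and 4.48, and had a limma adjusted p of 0.238.

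Of 12 PARP genes, the 4 past 2-fold were Parp9, Parp14, Parp12 and Zc3hav1 (PARP13). The other 8 lay between -0.40 and 0.39, with Parp1, the main DNA-damage PARP, going from 9.52 to 9.55. Parp9, Parp14 and Dtx3l have further detected probes that gave smaller responses. These were 0.80 and 1.49 for Parp9, 2.54 for Parp14 and 0.63 for Dtx3l.

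Antigen processing and MHC class I genes had a lower share, with 2 of 18 past 2-fold, a median of 0.20 and 3 rising in the limma test. Both were immunoproteasome subunits. Psmb8 went from 7.31 to 8.46 (2.23-fold), and Psmb9 was not detected without IFNa and reached 6.57 (at least 2.29-fold). In the authors' values the ratios were 1.78 and 1.58, and none of the 18 was past 2-fold. Tap1, a peptide transporter subunit, differed by 0.87 and Tap2 by 0.64. B2m, the light chain of class I molecules, went from 14.28 to 14.51. The 14 genes of the constitutive proteasome lay near 0, with a median of -0.03 and none past 2-fold.

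Nuclear body and cell death genes had 4 of 17 past 2-fold and a median of 0.24. Pml, the scaffold of nuclear bodies, went from 9.23 to 10.94 (3.27-fold), and its 2 other detected probes gave 1.42 and -0.18. Daxx, a partner of PML, went from 9.70 to 11.09 (2.61-fold), and Ifi47, a further immunity-related GTPase, from 6.49 to 8.74 (4.75-fold). Casp4, which encodes caspase-11, a sensor of bacterial lipopolysaccharide, lay at the threshold, going from 9.50 to 10.51, and its other probe gave 0.57.

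Among secreted and surface genes, the responses were narrow. Of 13 chemokines, Cxcl10 alone was past 2-fold. Ccl7 went from 12.54 to 13.21 and Ccl2 from 11.68 to 12.10, and neither passed the limma test. Of 17 cytokines and growth factors, Il6 (8.26 to 9.37) and Il15 (5.11, not detected, to 6.14) were past 2-fold, and both passed the test of the mean. At its bound Il15 had a response of 0.77, and in the authors' values none of the 17 was past 2-fold. Of 9 surface genes, Cd274 and Clec2d were past 2-fold. Clec2d, a ligand of an inhibitory natural killer cell receptor, went from 9.41 to 10.93 (2.86-fold).

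None of the NF-kB (19 genes), immediate-early (29), STAT3 target (24), sterol synthesis (26), cell cycle (26), p53 (7), heat shock (13) or extracellular matrix (27) genes was past 2-fold on its brightest probe. A dimmer probe of the sterol list's Insig1, not detected without IFNa, gave 1.13. In the limma test 1 gene fell in each of the NF-kB, immediate-early and STAT3 target lists, which share members, and 1 immediate-early gene rose. The medians of all these lists lay between -0.26 and 0.09. With scaling to the 75th percentile those of the immediate-early, STAT3 target, p53, heat shock and matrix lists turned positive, under a shift of all genes to 0.33. With cyclic loess the matrix median, -0.02, became 0.03. Among housekeeping genes, Rps18 went from 15.32 to 14.69 and Gapdh from 15.55 to 15.78. The 4 detected probes of Actb gave -0.56 (the probe used), 0.08, 0.07 and -3.37, the last going from 13.87 to 10.51 in WT.

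**Figure D3:**
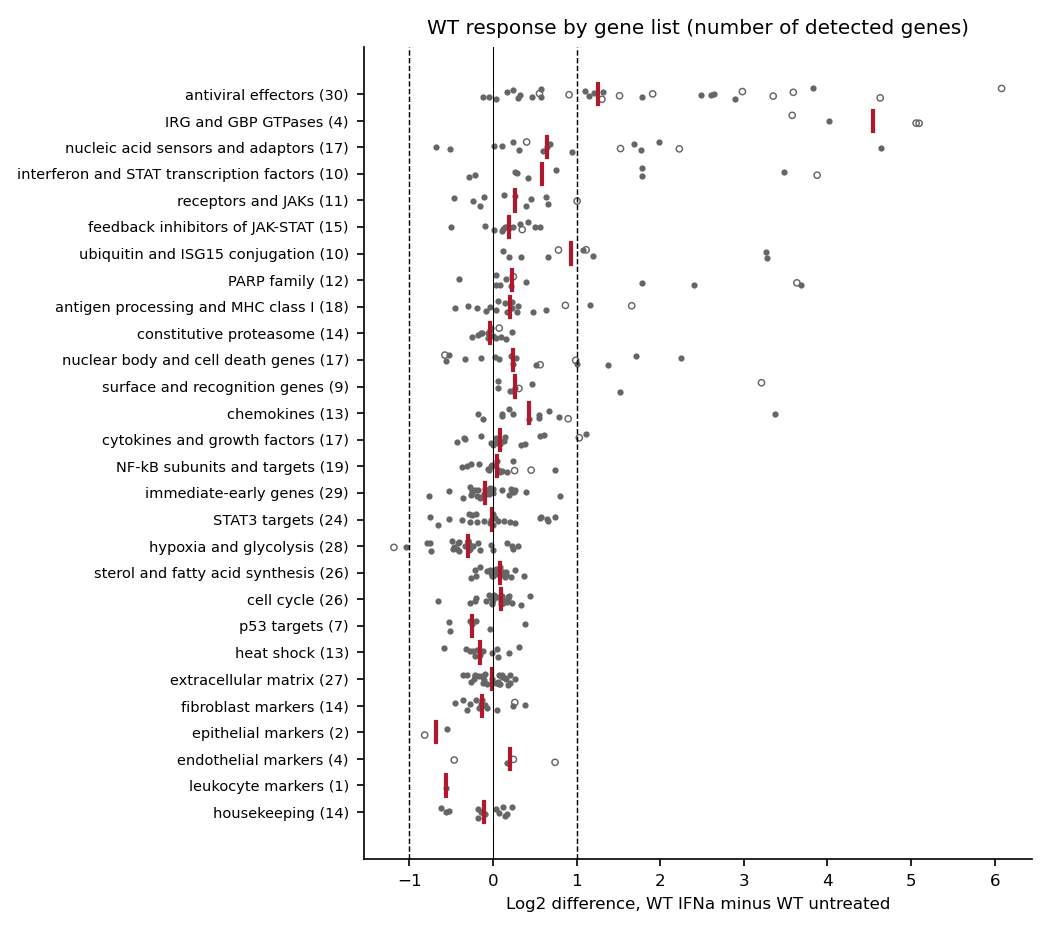
Responses (WT IFNa minus WT untreated, log2) of the detected genes of 28 gene lists, 1 point per gene, open where the probe was detected on 1 array only, with a red bar at the median and dashed lines at 2-fold. Members past 2-fold lie in the interferon lists at the top and in the surface, chemokine, cytokine and receptor lists, and 2 hypoxia genes lie below -1.

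Hypoxia and glycolysis genes were lower as a list, which like the others was chosen with earlier results of these data known. Of 28 detected genes, none was at least 2-fold higher, 2 were at least 2-fold lower, and 24 (85.7%) lay below 0, beside 46.4% of all genes, and the median was -0.30. The median was between -0.35 and -0.29 under the other settings apart from scaling to the 75th percentile, where it was -0.03 against 0.33 for all genes. Ddit4, an inhibitor of the growth kinase mTORC1, went from 10.33 to 9.29 (2.06-fold lower), a ratio of 0.514 in the authors' values, where no gene of the list was past 2-fold. Ndrg1, a stress-responsive gene, went from 11.95 to 11.16, and its second probe differed by -0.89. Ankrd37, a target of hypoxia-inducible factor, went from 11.95 to 11.19. In the limma test of the mean response 4 of the 28 fell and none rose. These were Ddit4, Ndrg1, Ankrd37 and Selenbp1 (adjusted p = 0.0217, 0.000998, 0.00185 and 0.0228). Selenbp1 was past 2-fold on its brightest probe (6.29, then 5.11, not detected), while its other probe gave -0.59. In STAT3KO the median of the list was -0.40, with Ndrg1 at -0.82 and Ankrd37 at -0.86. The share below 0 in WT was not particular to this list, as 6 of 7 p53 genes (85.7%) also lay there.

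Of the 7 genes at least 2-fold lower and detected on both arrays, Ddit3 differed most. Ddit3 encodes CHOP, a transcription factor of the unfolded protein response, and went from 10.59 to 9.39 (2.30-fold lower), or from 1074.2 to 498.1 in the authors' values. Its limma adjusted p was 0.086, with a STAT3KO response of -0.30. A list of 18 stress-response genes chosen after this value was seen had 14 members below 0 and a median of -0.26, with Trib3 at -0.50 and Chac1 at -0.42. Synrg (-1.19), Gdpd4 (-1.10), Slc29a4 (-1.10), Olfr448 (-1.08) and St6galnac6 (-1.02) were the others beside Ddit4. The second probe of Synrg gave 0.01 in WT. All 5 of these were higher, not lower, with IFNa in STAT3KO, from 0.39 for Synrg to 1.09 for Gdpd4. Of the 28 lower genes, 22 were under 8 on the log2 scale without IFNa. Only 2 of the 28 fell in the limma test, Ddit4 and Selenbp1.

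The probes of 2 genes, singled out after their values were seen, were bright on the untreated WT array and undetected on the other 3 arrays. Fbxw5, which encodes a ubiquitin ligase adaptor, had 790.6 in the authors' values without IFNa and 77.3 with it, a ratio of 0.0978 (at least 29.2-fold lower on the background-corrected scale). Psmc1, an ATPase subunit of the proteasome's regulatory particle, had 438.9 and 69.8, a ratio of 0.159 (at least 15.3-fold lower on the background-corrected scale). In the regulatory particle as a whole, a list chosen after this value was seen, 1 of 11 genes was past 2-fold, Psmc1 itself, and the median was -0.06. That untreated WT array is the one whose deposited values were already normalized, and its part in these values was not tested.

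The 47 higher genes outside the interferon lists were mostly dim, as 39 of them stayed under 8 on the log2 scale with IFNa. Of the 46 in the lists, 34 reached at least 8. The 8 outside the lists that did so were Cxcl10, Clec2d and Il6, described above, and the following 5. Serpina3f, a serine protease inhibitor gene, went from 6.86 to 9.68 (7.03-fold) and Ifi211, an interferon-inducible gene of the PYHIN family not among the list entries, from 6.40 to 8.73 (5.03-fold). Mitd1, which acts in the end stage of cell division, went from 8.31 to 9.90 (3.02-fold). Tent5a, a poly(A) polymerase gene, went from 8.13 to 9.30, and Ptx3, a secreted pattern-recognition protein gene, from 9.08 to 10.13. Serpina3f, Ifi211, Mitd1 and Tent5a rose in the limma test, and Ptx3, not detected in STAT3KO, did not (adjusted p = 0.97). The genes named outside the lists, other than Serpina3f, were picked after their values were seen.

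Agreement between probes could be read for few genes. Of the 93 higher genes, 18 have another detected probe, which was also past 2-fold for 9 of them and above 0 for 17. Of the 28 lower genes, 3 have one, which was below 0 for 1 and past 2-fold for none. The paralogues Apol9a and Apol9b are near-identical, and their probes may share signal.

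ISRE cores were more frequent in the promoters of genes with larger responses. Among genes at least 4-fold higher, 13 of 25 with a promoter in the table (52.0%) held the core, on either strand. The share was 10.9% of 55 genes between 2-fold and 4-fold, 8.51% of 282 between 1.5-fold and 2-fold, and 3.07% of 7171 within 1.5-fold. Of the 21 genes at least 2-fold lower, 2 (9.52%) held it, a share near that of genes between 2-fold and 4-fold higher. Over all 27025 genes of the table the share was 3.99%, and over its 32851 promoters it was 3.44%. The 32 matches in the 19 higher genes that hold one lay between 232 bases before and 28 bases after the gene start by their centres, with a median of 78 before it, and 23 lay within 150 bases before it. Rsad2, Irgm2, Igtp, Irgm1, Stat2, Ifit3, Gbp3, Cxcl10, Apol9a, Apol9b and Eif2ak2 held the core among the 25 largest responses, and Helz2, Cmpk2, Samd9l, Irf9 and Trim25 are among those whose window holds no match to these letters.

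The GAS core TTCNNNGAA was more common at large. It was found in 16% of genes at least 4-fold higher, 21.8% of those between 2-fold and 4-fold and 8.26% of those within 1.5-fold. Over the whole table it was found in 9.55% of genes and 8.30% of promoters. Of the 19 GAS matches in higher genes, 1 overlapped an ISRE match. A match is a description of the letters, not of binding.

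**Figure D4:**
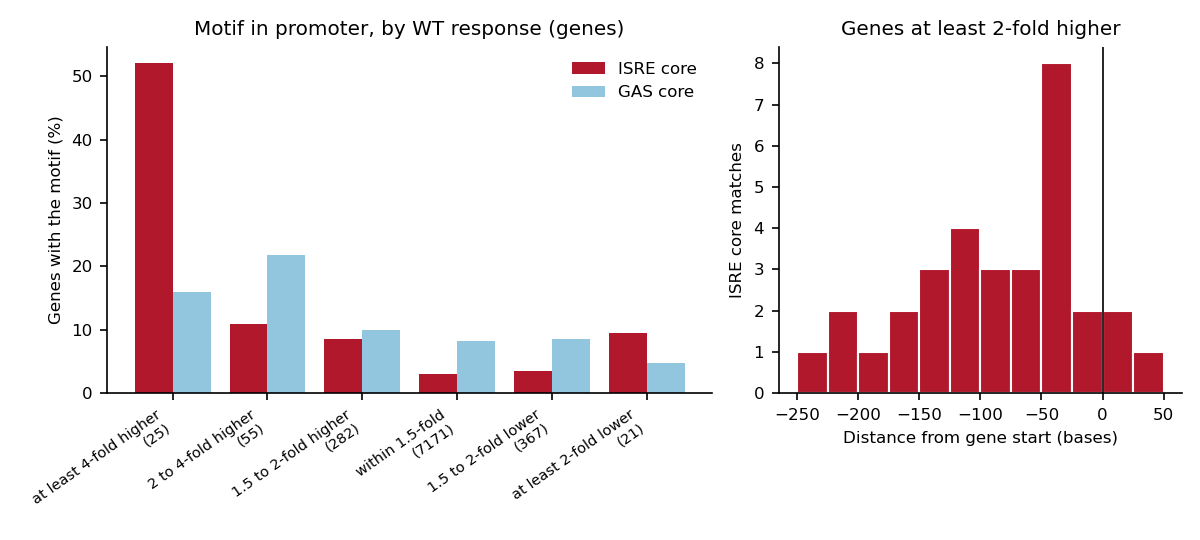
Left, share of genes (%) whose promoter holds an ISRE core (red) or a GAS core (blue), by class of WT response, with the number of genes in parentheses. Right, number of ISRE core matches by distance of their centre from the gene start (bases) in genes at least 2-fold higher. The ISRE share was 52.0% in the first class and 3.07% in genes within 1.5-fold, and most matches lie before the start.

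Some of the higher genes lie side by side. In the order of genes on the RefSeq assembly GRCm38.p6, 6 pairs of neighbouring tested genes were both past 2-fold, namely Igtp and Irgm2, Slfn8 and Slfn2, Rsad2 and Cmpk2, Parp14 and Dtx3l, Dtx3l and Parp9, and Oasl2 and Oasl1. Oasl2 was not detected without IFNa, and its bound was 1.56-fold. Of 92 higher genes with a place, 11 (12%) had a higher neighbour, beside 1.11% of the 9630 tested genes with a place.

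The WT responses can be set beside those of STAT3KO, which come from separate arrays and have no test of the difference. STAT3KO had 127 genes (1.28% of 9904) past 2-fold upwards and 74 (0.747%) downwards. Of the WT genes, 52 were also at least 2-fold higher in STAT3KO, which is 55.9% of the WT genes and 40.9% of the STAT3KO ones. In the interferon lists 40 of 46 (87.0%) were past 2-fold in both, and all 46 lay above 0 in STAT3KO. Outside them it was 12 of 47 (25.5%), with 23 above 0, beside 47.4% of all tested WT genes. Of the 28 lower genes, 1 was also 2-fold lower in STAT3KO (Selenbp1) and 7 lay below 0, beside 52.5% of all tested WT genes. Among the 25 largest WT responses, the WT value was the larger one for 10 genes and the STAT3KO value for 15.

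Mx2, an interferon-induced antiviral GTPase, had a response of 3.35 in WT and 6.71 in STAT3KO, with undetected starting values in both. Ch25h rose in the limma test of the mean, with 7.63 and 10.27 on the WT arrays and 4.79 and 5.77 on those of STAT3KO. Clec2d responded by 1.52 in WT and 3.66 in STAT3KO, and Ifit2 by 0.58 and 3.02. Serpina3f had the largest difference towards WT among genes detected on all 4 arrays and past 2-fold in either genotype, with 2.81 against 1.27. Nudt7, Fam122b, P4ha3, Gpalpp1, Elmo2, Slc2a13 and Slc35f5 came next, and Inpp1, Tnfsf10, Gm12250, Sp100, Olfr448 and Gdpd4 were, beside Clec2d and Ifit2, the largest towards STAT3KO. The genotypes could not be compared with a replicate error in any of these.

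**Figure D5:**
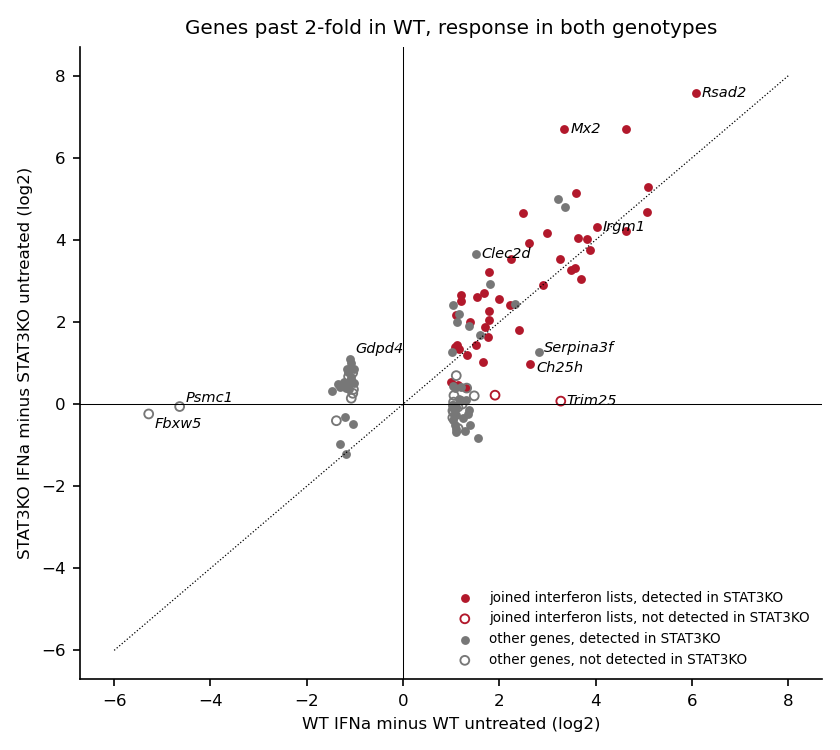
Response in STAT3KO against response in WT (IFNa minus untreated, log2) for the 121 genes past 2-fold in WT, red for the joined interferon lists and grey for other genes, open where no STAT3KO array detected the probe, with a dotted line at equal responses. All 46 red points lie above 0 on the STAT3KO axis, with Trim25 (0.07) nearest to it, and 23 of the 47 grey points at the right do.

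Markers of fibroblasts were present on both WT arrays. Of 15 fibroblast markers 14 were detected, with summed intensities in the authors' values of 124969 without IFNa and 103593 with it. Of 11 epithelial markers 2 were detected (Krt18 and Krt19), of 9 endothelial markers 4, and of 9 leukocyte markers on the array 1, Ms4a1, which was close to background (5.83, then 5.27). The leukocyte marker Ptprc was not detected on either array. The WT untreated array detected 16076 probes, the WT IFNa array 16814 and the STAT3KO arrays 17524 and 16096. Just inside the detection threshold, 20 probes had a median response of -0.23, from -0.67 to 0.59, and 20 just outside had -0.18, from -0.67 to 0.78.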

How the data were processed

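Per the file headers, the authors deposited for every probe an intensity on a linear scale and a detection score. Subtracting the score from 1 gave the detection p. BeadStudio 3.2.3 is named in the submitters' processing notes. Per the file headers, the WT untreated column was already normalized, by a method not given in the sources used here, and its values equal the authors' normalized intensities for the array. Background was corrected by normexp from the detection p with offset 16 (limma 3.58.1, R 4.3.3), and signals were taken to log2 and quantile-normalized over the 4 arrays. The authors' values had a median of 75.0 on each array.

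Of 46632 probes, 29976 had 1 gene symbol, 10 several and 16646 none. Symbols were updated through the Entrez ID (29921) or the accession (12) with the RefSeq table of GRCm38.p6, and 43 kept the platform's. A gene was represented by its probe of highest mean over the 4 arrays. The 28 lists hold 621 entries, and 560 matched. The 8 joined interferon lists cover antiviral effectors, GTPases, sensors, transcription factors, ubiquitin and ISG15 conjugation, PARPs, antigen processing and nuclear bodies. Members and lists were chosen with earlier results of these data known.

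The mean response over both genotypes was tested with limma (terms for genotype and treatment, an intensity trend in eBayes, Benjamini-Hochberg adjustment over 10515 genes). On simulated data for that comparison (10515 genes) it called 70.0% of 50 genes changed 2-fold and 88.0% of 50 changed 4-fold, and 7.40% of its calls were unchanged genes. The simulation used normal noise whose spread depended on intensity alone, and gave each changed gene the same change in both genotypes. Its rates hold for that setting and were not obtained for genes whose responses differ between the genotypes. Named were the 25 largest WT responses, the 10 lowest among genes detected on both WT arrays, the 8 largest differences between the genotypes in each direction, up to 5 members of each list with the largest response, and members needed to describe a list. The number of arrays limits the precision. The alternatives were no background correction, 75th percentile scaling, cyclic loess, quantile normalization of the WT arrays alone, offset 50, the authors' values, other detection filters, the mean of all probes and, for limma, no trend.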

Additional observations from a re-analysis of the deposited data

Results flagged for a closer look

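Gdpd4, a member of the glycerophosphodiester phosphodiesterase family, moved opposite ways in the genotypes. Its WT arrays read 227.9 without IFNa and 138.3 with it in the authors' values, and its STAT3KO arrays 127.1 and 199.2. The log2 responses were -1.10 and 1.09, so the WT response minus the STAT3KO response was -2.20. The difference was not tested, as each value is 1 array.

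Probes with no gene name in the platform table also held differences past 2-fold, at a share near that of all probes. Of 4247 such probes, 41 were at least 2-fold higher in WT with IFNa and 16 lower. Among the 13392 named probes it was 125 and 39, and over all 17639 probes 0.941% and 0.312%. Of the 41, 24 were past 2-fold upwards in both genotypes. The probe ILMN_2433990 went from 4.47 (not detected) to 9.79 and ILMN_1257249 from 4.70 (not detected) to 9.22, while ILMN_1219839 and ILMN_2473521 differed by -1.52 and -1.27.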

How the results depend on the processing

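Of 58 named genes past 2-fold in WT, between 35 (the authors' normalized values) and 58 stayed past 2-fold under the settings that used all of them, and none changed sign. The count of higher genes, 93, was 40 with no background correction, 50 with offset 50, 37 in the authors' values and 47 among genes detected on both WT arrays. The 28 lower genes became 3, 5, 4 and 7 in the same order and 145 with 75th percentile scaling. With undetected values at their bounds 64 genes were higher and 15 lower, and at a mean log2 intensity of at least 8 there were 26 and 3, both settings chosen after seeing the data. The share also past 2-fold in STAT3KO, 55.9%, was 92.5% with no background correction, 86.0% with offset 50 and 89.2% in the authors' values. The other settings left the total counts of higher and lower WT genes within 1.5 times of those reported. Of the joined interferon lists, 46 genes were higher as reported, 31 in the authors' values, 29 among genes detected on both WT arrays and 19 at a mean log2 intensity of at least 8. In the limma test, 79 and 14 became 43 and 3 with 75th percentile scaling, 42 and 4 with detection on both WT arrays, 51 and 4 with no filter on detection, and 0 and 0 without the intensity trend, where 284 genes had an unadjusted p under 0.05 against 439 with it. The genes that fell numbered 35 with no background correction, 33 with cyclic loess, 35 with offset 50, 34 in the authors' values and 33 with the mean of all probes, and those that rose between 92 and 112 under these. The cause was not tested, other than that fewer genes enter where detection on both WT arrays or a bright mean is required. Replicate cultures could not be paired within a genotype, because each group holds 1 array and the labels give no replicate numbers.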
